A study of Mus musculus with 162 samples.

Results

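Genes were examined whose response to MC903 in cheek skin differed between wild-type mice given aGr1 and uninjected wild-type mice at day 8. Members were chosen by the interaction, which is the MC903 effect (MC903 against ethanol, log2) in aGr1 mice minus that in uninjected mice. Of 27824 genes tested, 1269 passed an adjusted p of 0.05, 935 with a lower interaction (3.36% of all tested) and 334 with a higher one (1.2%). The 19 libraries of this comparison are part of a series of 162 libraries, and 5 libraries of PBS-injected mice served to check directions.

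All mice were adult male C57BL/6 wild-type animals. MC903 (calcipotriol, a vitamin D analog) was painted once a day at 0.2 mM in 20 µL of ethanol, and control mice received the same volume of ethanol. The aGr1 groups (4 MC903 and 4 ethanol libraries) were injected intraperitoneally with 250 µg of the anti-Gr1 antibody clone RB6-8C5 in PBS each day, the PBS groups (2 MC903 and 3 ethanol) with PBS, and the uninjected groups (5 MC903 and 6 ethanol) with nothing. Library names split the uninjected mice into cohort A (3 painted with MC903, 3 with ethanol) and cohort B (2 and 3). The antibody binds Ly6G, a neutrophil surface protein, and also Ly6C, which inflammatory monocytes carry, so it is not a model of neutrophil loss alone. RNA came from whole skin, in which fewer cells of a type and less RNA per cell cannot be told apart.

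MC903 on skin drives a dermatitis in which keratinocytes release the cytokine TSLP and leukocytes enter the dermis. Neutrophils follow the chemokines Cxcl1, Cxcl2, Cxcl3 and Cxcl5 through their receptor Cxcr2. Interferons act through factors such as Stat2 and Irf9 on a large set of target genes. Among them are Cxcl9 and Cxcl10, ligands of Cxcr3, a chemokine receptor of T cells, and Cxcl11, which is annotated as a polymorphic pseudogene.

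Some libraries stood apart, and these facts touch every result that follows. Reads counted in genes ranged from 19.4 M to 39.6 M per library. Skin markers such as Krt5, Krt14 and Col1a1 summed to 8203 to 30750 cpm (read counts scaled to library size) over all libraries. Under ethanol they summed to 8203 to 18020 cpm in aGr1 mice, 10780 to 16590 cpm in PBS mice and 14040 to 30410 cpm in uninjected mice. Transcripts of 20 gland secretory proteins, a list made after these data were seen, took 23.5%, 36.4%, 5.34% and 19.3% of the reads in aGr1 ethanol libraries 1 to 4. The same list took 1.31% and 2.9% in aGr1 MC903 libraries 3 and 4, 1.61% in PBS MC903 library 2, and at most 0.105% in every other library. B cell markers summed to 900.8, 514.2, 66.24 and 43.63 cpm in aGr1 ethanol libraries 1 to 4, against 6.757 to 44.63 cpm in the other 20. The vehicle arm of the aGr1 mice thus differed from the other vehicle arms in these lists, and the results depend on it. Of the 935 lower and 334 higher genes, 94 and 39 still passed without aGr1 ethanol libraries 1 and 2, and 2 and 5 with PBS ethanol in place of the aGr1 vehicle arm. Apart from the genes named for that setting further on, no gene named here passed with the PBS vehicle.

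Among the 935 genes with a lower interaction, the median MC903 effect was 0.51 in uninjected mice and -1.32 in aGr1 mice, with a median interaction of -1.99, against 0.02 over all genes tested. These medians follow from how the genes were chosen. MC903 lowered 486 of them in aGr1 mice with no call in uninjected mice. Another 226 rose in uninjected mice with no call in aGr1 mice, 86 fell in both settings, 18 rose in both and 7 were called in neither. The rest rose in uninjected mice and fell in aGr1 mice. Of the 334 genes with a higher interaction, 158 were called as rising in aGr1 mice with no call in uninjected mice, 50 fell in uninjected mice with no call in aGr1 mice, 11 fell in uninjected and rose in aGr1 mice, and 3 were called in neither. The rest rose in both. Over all genes, MC903 raised 3403 (12.2%) and lowered 3583 (12.9%) in uninjected mice, and raised 3522 (12.7%) and lowered 4218 (15.2%) in aGr1 mice.

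**Figure D1:**
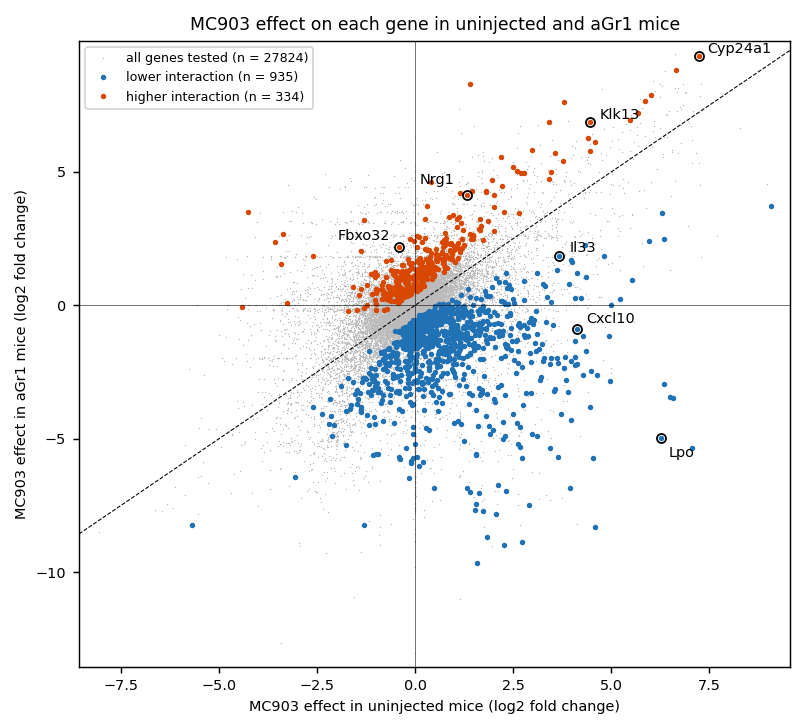
Each point is a gene, placed by its MC903 effect in uninjected mice (horizontal axis, log2 fold change) and in aGr1 mice (vertical axis, log2 fold change), with 935 genes of lower interaction in blue and 334 of higher interaction in orange. The dashed line marks equal effects; Cxcl10 lies at 4.12 and -0.88, Lpo at 6.28 and -4.99, and Klk13 at 4.47 and 6.86.

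The PBS mice gave the same direction for most members. The interaction taken against PBS shares the aGr1 libraries with the one against uninjected mice, so it is a check of direction and not a second sample of aGr1 mice. Of the 935 lower genes 930 had the same sign against PBS, as did 21305 of all 27824 genes, and 240 of them also passed there, where 292 genes (1.02%) were lower in all. Of the 334 higher genes 330 had the same sign and 7 passed, among 9 genes (0.0316%) that were higher in all. In PBS mice themselves, whose libraries had no part in the choice, MC903 gave a median effect of 0.45 on the lower genes and 0.47 on the higher genes, against -0.01 over all. Between PBS and uninjected mice no gene passed for a different MC903 effect by edgeR's quasi-likelihood test (952 at an unadjusted p under 0.05, and 1 higher and 1 lower by DESeq2), and between cohorts A and B none passed either (2853 unadjusted, and 103 higher and 483 lower by DESeq2).

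Both treatment arms differed between aGr1 and PBS mice in these genes. These contrasts reuse the aGr1 libraries that chose the genes, so part of any excess in the chosen direction follows from that choice. They also take PBS mice as controls, where the interaction took uninjected mice. With ethanol alone, 444 of the 935 lower genes were already higher in aGr1 than in PBS mice, with a median difference of 1.12, while over all genes 1143 (4.01%) were higher and 309 (1.08%) lower. With MC903, 18 of the 935 were lower in aGr1 than in PBS mice, with a median difference of -0.36, where 22 genes (0.0772%) were lower and 8 (0.0281%) higher in all. Of the 334 higher genes, 35 were lower with ethanol and 4 were higher with MC903. Among the 22 genes lower in aGr1 mice under MC903, 12 belong to lists of interferon-induced and CXCR3 genes. They include Isg15, Cxcl10, Oas1a, Cxcl9, Oasl2, Irf9, Stat2, Igtp, Gbp2, Xaf1 and Irf7, with differences from -1.62 for Irf9 to -4.76 for Cxcl9. When aGr1 MC903 library 3 and PBS MC903 library 2, both with gland transcripts, were left out of that contrast, no gene passed. That removal left PBS mice with 1 MC903 library and kept aGr1 MC903 library 4, in which gland transcripts took 2.9%, so the part of gland transcripts in the result was not tested.

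**Figure D2:**
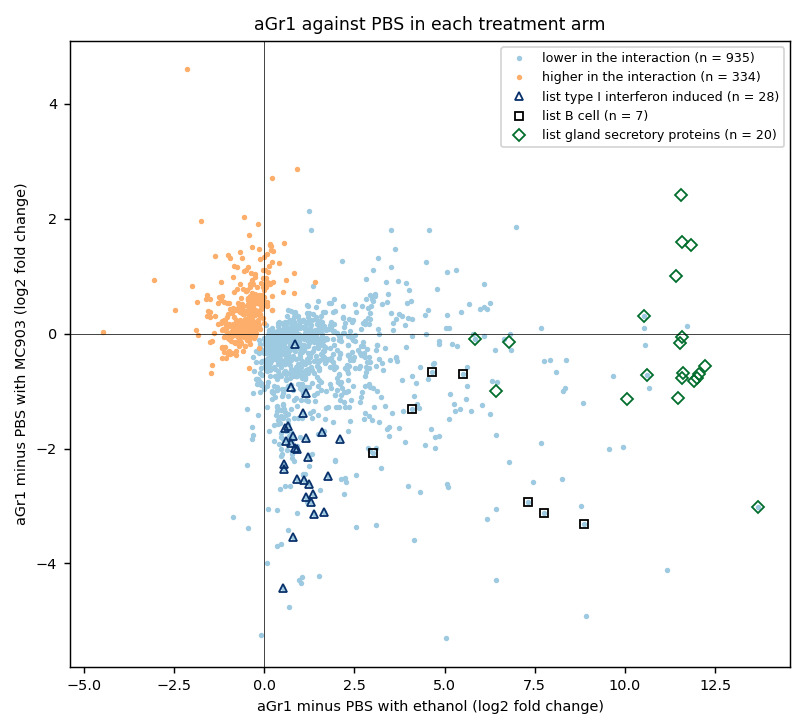
Each point is a gene, placed by its difference between aGr1 and PBS mice with ethanol (horizontal axis, log2 fold change) and with MC903 (vertical axis, log2 fold change). All 28 type I interferon genes (triangles) lie below 0 under MC903, with a median of -2.08, whereas B cell genes (squares, 7) and gland secretory genes (diamonds, 20) lie far to the right, with medians of 5.51 and 11.56 under ethanol.

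The CXCR3 ligands Cxcl9 and Cxcl10 were raised by MC903 in uninjected and PBS mice, with no call in aGr1 mice. Cxcl10 (ENSMUSG00000034855), a chemokine for T cells, stood under MC903 at 61, 96.6 and 8.87 cpm in cohort A, 6.72 and 18.1 cpm in cohort B, 13.8 and 58.7 cpm in PBS mice, and 1.19, 2.47, 1.59 and 2.44 cpm in aGr1 mice. Under ethanol it stood between 1.12 and 2.26 cpm in the 9 uninjected and PBS libraries, and at 4.83, 5.04, 2.14 and 1.85 cpm in aGr1 mice. All 4 aGr1 MC903 libraries thus lay below all 7 other MC903 libraries and among the ethanol libraries. Cxcl10 rose by 4.12 ± 0.56 (log2, SE) in uninjected mice (adjusted p = 3.05e-05) and by 4.44 ± 0.79 in PBS mice (adjusted p = 7.85e-04), while the effect in aGr1 mice was -0.88 ± 0.62 (adjusted p = 0.3291). Its interaction was -5.00 ± 0.84 (adjusted p = 0.004945), and the difference between aGr1 and PBS mice was -4.24 ± 0.71 under MC903 (adjusted p = 0.03719) and 1.06 ± 0.68 under ethanol (adjusted p = 0.3955).

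Cxcl9 followed the same order. It stood under MC903 at 88.2, 165 and 5.47 cpm in cohort A, 9.55 and 27.4 cpm in cohort B, 41.1 and 132.8 cpm in PBS mice and 2.34 to 4.71 cpm in aGr1 mice, again with no overlap between aGr1 and the rest. Under ethanol it stood at 12.4, 8.75, 3.41 and 3.39 cpm in aGr1 mice and 1.79 to 7.33 cpm elsewhere, so that 2 aGr1 ethanol libraries were the highest of that arm. The interaction of Cxcl9 was -5.43 ± 1.04 (adjusted p = 0.007339) and -4.73 ± 1.03 with the PBS vehicle (adjusted p = 0.08768). Cxcl11 had only 2, 0, 1 and 3 reads in aGr1 MC903 libraries against 9 to 140 in the other 7, and its interaction, -5.63 ± 0.96 (adjusted p = 0.005344), rests on those few reads. Cxcl11 rose in uninjected mice and gave 1.92 ± 0.73 in PBS mice (adjusted p = 0.132). Cxcr3, the receptor of Cxcl9 and Cxcl10, did not pass (interaction -1.68 ± 0.54, adjusted p = 0.0855). Ifng, the cytokine that induces these ligands, was scarce, at 0 to 90 reads in the 7 other MC903 libraries and 0 to 2 in aGr1 mice, and did not pass (adjusted p = 0.1651).

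**Figure D3:**
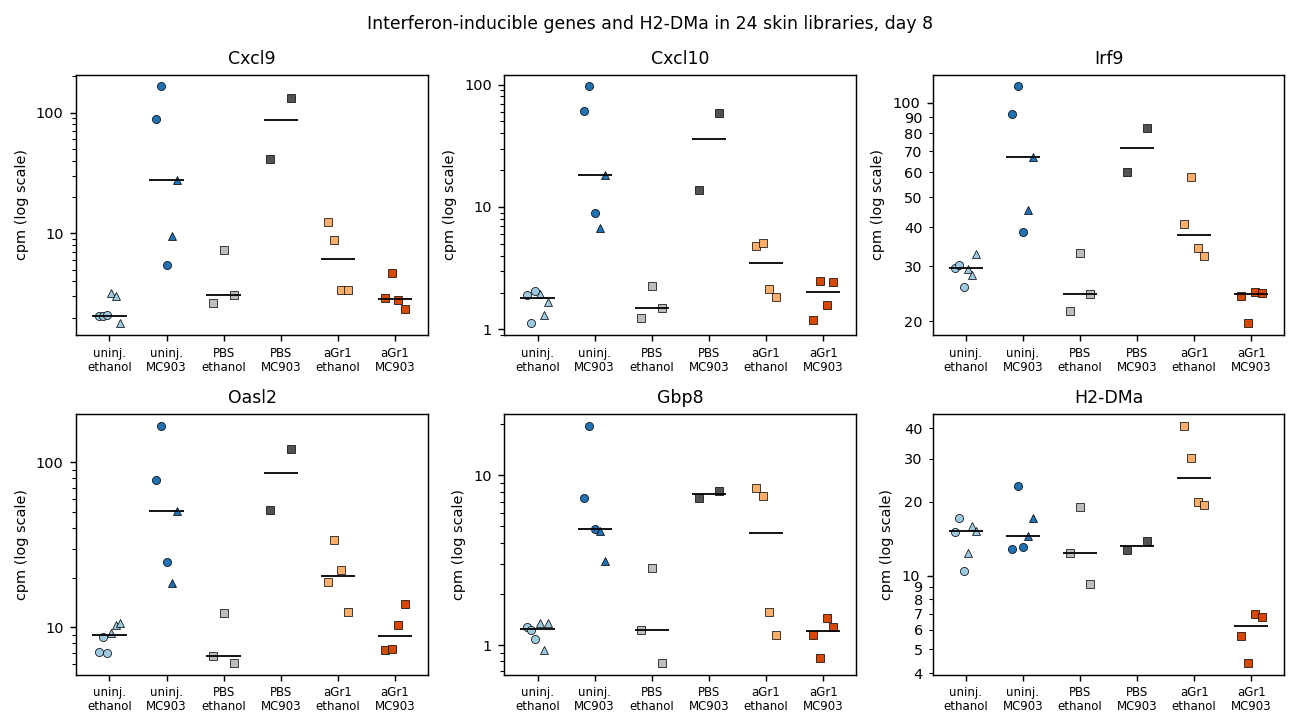
Levels of 6 genes (cpm, log scale) in 24 libraries, with circles for cohort A, triangles for cohort B, squares for injected mice and a bar at each group's median. For Cxcl9, Cxcl10, Irf9, Oasl2, Gbp8 and H2-DMa the 4 aGr1 MC903 points lie below the 7 other MC903 points, and the aGr1 ethanol points of H2-DMa, 19.4 to 40.9 cpm, lie above those of all other ethanol libraries.

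Most genes induced by type I interferon had a lower interaction. Of 28 tested, 26 were lower and none higher, where 3.36% of all genes were lower. The median was -2.98 against 0.02 over all genes. Without aGr1 ethanol libraries 1 and 2 the count was 6 with a median of -2.42, and also without library 4 it was 0 with a median of -2.68. The median MC903 effect was 1.81 in uninjected mice and 2.12 in PBS mice, where 24 and 22 of the 28 rose, and -1.15 in aGr1 mice, where 14 fell. The PBS counts compare with 4.7% of all genes that rose and 2.74% that fell in PBS mice. Against PBS, 21 of the 28 had a lower interaction, with 28 of 28 negative. The summed level of the list under MC903 was 156.5 to 245.4 cpm in aGr1 mice, 260.6 to 1430 cpm in uninjected mice, and 608.4 and 1067 cpm in PBS mice, so the groups did not overlap. Under ethanol it was 269.1 to 581.4 cpm in aGr1 mice and 155.3 to 293 cpm in the others.

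Some single members of the list repeated this order. Of the 28, 12 lay lower in every aGr1 MC903 library than in every other MC903 library, and the rest did not. Over all genes 3.65% did so, and the count is a description, because these libraries entered the interaction. Irf9, a transcription factor of interferon signalling, stood under MC903 at 92, 112.8 and 38.7 cpm in cohort A, 45.4 and 67.1 cpm in cohort B, 60 and 83.1 cpm in PBS mice and 24.1, 19.7, 24.8 and 24.7 cpm in aGr1 mice. The aGr1 values lay below all others under MC903, where the uninjected and PBS ethanol libraries held 21.6 to 33.2 cpm and the aGr1 ethanol libraries 32.3 to 57.9 cpm. Irf9 had an interaction of -2.08 ± 0.34 (adjusted p = 0.004945) and differed by -1.62 ± 0.30 between aGr1 and PBS mice under MC903 (adjusted p = 0.03719). Its partner Stat2 had an interaction of -2.41 ± 0.41 (adjusted p = 0.00513). Oasl2, of the oligoadenylate synthetase family that senses viral RNA, stood at 7.31, 7.45, 10.4 and 13.8 cpm in aGr1 MC903 mice and 18.5 to 167 cpm in the 7 other MC903 libraries. Its interaction was -3.99 ± 0.67 (adjusted p = 0.004945). The antiviral genes Oas1a and Ifit1 had interactions of -3.37 ± 0.55 and -4.80 ± 0.89, which with the PBS vehicle were -2.01 ± 0.61 and -3.97 ± 0.92 (adjusted p = 0.2243 and 0.1131). Ifi27, an interferon-inducible gene outside the list, had an interaction of -2.20 ± 0.26 (adjusted p = 3.48e-04; -1.15 ± 0.28 and adjusted p = 0.144 with the PBS vehicle), with an MC903 effect of 0.02 ± 0.17 in uninjected mice (adjusted p = 0.9425) and -2.18 ± 0.20 in aGr1 mice (adjusted p = 2.86e-07). It stood at 74.5 to 175 cpm in aGr1 ethanol libraries and 39.4 to 92.6 cpm in PBS ethanol libraries, and was higher there in aGr1 mice by 1.03 ± 0.25 (adjusted p = 0.01846).

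The letters of the interferon-stimulated response element, a site bound by the complex that holds Stat2 and Irf9, were looked for in promoters, taken as 250 bases before to 50 after the RefSeq gene start in build GRCm38.p6. The motif GAAANNGAAA, read on both strands, was found in 3.99% of 27025 promoters. It was found in 11.7% of the 652 genes of lower interaction and 4.98% of the 201 genes of higher interaction that had a promoter in the table, in 12 of 22 type I interferon genes and in 11 of 16 interferon-gamma genes. These lists were chosen as interferon targets, so the share in them is a description. The stretches below, 30 bases each and 5′ to 3′ on the strand of the gene, show it in 4 members whose values are given above, with 1 match of each in capitals. Oas1a and Ifit1 hold 2 matches each, and the other one of Oas1a overlaps the capitals. They lie at chr5:92349083-92349112 (minus strand) for Cxcl10, chr10:128270266-128270295 (plus) for Stat2, chr5:120907526-120907555 (minus) for Oas1a and chr19:34640794-34640823 (plus) for Ifit1, all upstream of the gene start.
Cxcl10: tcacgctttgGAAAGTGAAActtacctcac
Stat2: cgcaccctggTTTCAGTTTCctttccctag
Oas1a: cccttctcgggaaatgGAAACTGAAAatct
Ifit1: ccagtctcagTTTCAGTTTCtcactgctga

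In Stat2 and Ifit1 the capitals read as the reverse complement of the motif. No match of the response element stood in this window of Cxcl9, Oasl2, Irf9 or Psmb9, which says only that these letters are not there.

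Interferon-gamma targets and the MHC class I machinery also had lower interactions, to be read against the 3.36% of all genes that were lower. Of 26 interferon-gamma genes 20 had a lower interaction (median -3.25), 24 rose in uninjected mice, 13 rose in PBS mice and none rose in aGr1 mice, and 15 lay lower in every aGr1 MC903 library than in every other MC903 library, where 3.65% of all genes did. Those libraries entered the interaction, so this count is a description. Without aGr1 ethanol libraries 1 and 2 the interaction was lower in 1 of the 26, with a median of -2.66. Gbp8, a guanylate-binding GTPase, stood at 1.15, 0.836, 1.44 and 1.27 cpm in aGr1 MC903 mice and 3.13 to 19.6 cpm in the 7 others. Under ethanol it stood at 8.45, 7.58, 1.57 and 1.15 cpm in aGr1 mice, so libraries 1 and 2 lay above every other ethanol library (at most 2.84 cpm). Its interaction was -4.55 ± 0.76 (adjusted p = 0.004945) and became -2.76 ± 0.63 (adjusted p = 0.06065) without those 2 libraries. Of 15 MHC class I genes 14 had a lower interaction (median -1.31), among them the immunoproteasome subunit Psmb9 at -2.66 ± 0.45, the peptide transporter Tap2 at -1.68 ± 0.30, the transactivator Nlrc5 at -1.84 ± 0.36 and the heavy chain H2-K1 at -1.31 ± 0.24. In uninjected mice 12 of the 15 rose, in PBS mice 2 rose, and in aGr1 mice 9 fell. Against PBS 2 of the 15 had a lower interaction, and none passed between aGr1 and PBS mice under MC903. Without aGr1 ethanol libraries 1 and 2 none of the 15 passed, with a median of -1.15. Guanylate-binding, oligoadenylate synthetase and H2 class I genes have near-identical relatives, so reads could be split among them. Over the type I, interferon-gamma, CXCR3 and MHC class I lists together, 60 of 70 genes tested had a lower interaction and 32 lay below without overlap under MC903.

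MHC class II genes, which present antigen on dendritic cells, macrophages and B cells, had a lower interaction although 1 of 11 rose and none fell in uninjected mice. Of 11 tested, 10 passed, where 3.36% of all genes were lower. The median interaction of the 11 was -2.05, and the median MC903 effect was 0.05 in uninjected, 0.21 in PBS and -2.24 in aGr1 mice. H2-DMa, which helps load peptides, stood under MC903 at 5.69, 4.41, 6.98 and 6.78 cpm in aGr1 mice and 12.7 to 23.3 cpm in the 7 others. Under ethanol it stood at 40.9, 30.3, 19.9 and 19.4 cpm in aGr1 mice and 9.2 to 19.1 cpm in the 9 others. The aGr1 libraries were therefore the lowest with MC903 and the highest with ethanol, without overlap in either arm. The interaction was -2.40 ± 0.33 (adjusted p = 0.001413). It was -1.90 ± 0.30 without aGr1 ethanol libraries 1 and 2 (adjusted p = 0.01343), -1.94 ± 0.37 also without library 4 (adjusted p = 0.06915) and -1.35 ± 0.33 with the PBS vehicle (adjusted p = 0.1439). H2-Ab1 gave -1.99 ± 0.35 (adjusted p = 0.005747) and -1.49 ± 0.34 without those libraries (adjusted p = 0.06028). Without them 2 of the 11 passed, with a median of -1.33.

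Lymphocyte genes were called in large numbers, and the aGr1 ethanol arm was high for them. Of 16 T cell genes 11, of 13 NK and cytotoxic genes 5, and of 7 B cell genes 7 had a lower interaction, where 3.36% of all genes did. The medians were -2.88, -4.11 and -6.11. Without aGr1 ethanol libraries 1 and 2 these counts were 1, 0 and 3, and with the PBS vehicle none passed and the medians were -0.79, -1.06 and -1.18. Cd8a, the coreceptor of cytotoxic T cells, stood under ethanol at 10.9, 7.28, 1.4 and 0.767 cpm in aGr1 mice and 0.0846 to 0.759 cpm in the 9 others. Under MC903 it stood at 0.0425, 0.152, 0.289 and 0.342 cpm in aGr1 mice and 0.395 to 3.75 cpm in the others, so that it too was highest with ethanol and lowest with MC903. Its interaction was -6.66 ± 1.18 (adjusted p = 0.005683) and without aGr1 ethanol libraries 1 and 2 it was -4.43 ± 1.07 (adjusted p = 0.07255). Ctla4, an inhibitory receptor of activated and regulatory T cells, and Gzmb, a granzyme, had interactions of -3.29 ± 0.55 and -4.58 ± 0.87, which with the PBS vehicle were -2.60 ± 0.55 and -2.32 ± 1.23 (adjusted p = 0.08327 and 0.5263). Gzmb rose by 5.52 ± 0.57 in uninjected mice (adjusted p = 1.27e-06), and by 5.71 ± 0.87 in PBS mice (adjusted p = 1.35e-04), with an effect of 0.94 ± 0.64 in aGr1 mice (adjusted p = 0.3104).

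Genes of secretory epithelium had large interactions, and their levels in the aGr1 vehicle arm were far above those of other vehicle arms. Lpo, lactoperoxidase, stood at 634, 1130, 108 and 1880 cpm in aGr1 ethanol libraries and at most 0.718 cpm in the other 9 ethanol libraries. Under MC903 it stood at 11.5, 3.15, 71.5 and 33.8 cpm in aGr1 mice, 5.08 to 35 cpm in uninjected mice and 17 and 81.3 cpm in PBS mice, and these groups overlapped. Its interaction of -11.27 ± 1.33 (adjusted p = 3.48e-04) became -0.65 ± 1.14 (adjusted p = 0.8978) with the PBS vehicle. Wfdc12, a small protease inhibitor, went from -10.03 ± 0.96 to -0.30 ± 0.74 in the same way. Bpifa2 and Amy1, which salivary glands secrete, reached 276000 and 97100 cpm in aGr1 ethanol library 2, yet did not pass in the interaction (adjusted p = 0.1624 and 0.06185). Of the 20 gland genes 4 passed, all lower, where 3.36% of all genes were lower. With ethanol 17 were higher in aGr1 than in PBS mice, where 4.01% of all genes were.

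Genes with a higher interaction included products of keratinocytes. In 62 of the 334 every aGr1 MC903 library lay above every other MC903 library, where 3.53% of all genes did. Those libraries entered the choice of the genes, so nothing is read from this count. Klk13, a kallikrein protease of the epidermis, rose from 7.12 to 11.2 cpm under ethanol to 160 to 258 cpm under MC903 in uninjected mice, and from 1.32 to 3.06 cpm to 218 to 261 cpm in aGr1 mice. Its MC903 levels overlapped, and the aGr1 ethanol libraries lay below the uninjected ones. In PBS mice it went from 3.9, 1.44 and 5.37 cpm to 178 and 182 cpm. Klk13 rose by 4.47 ± 0.16 in uninjected, 5.65 ± 0.35 in PBS and 6.86 ± 0.22 in aGr1 mice (interaction 2.39 ± 0.23, adjusted p = 3.82e-05), and the interaction against PBS was 1.23 ± 0.41 (adjusted p = 0.232).

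Several named genes of this direction were raised by MC903 in every setting. Ptgs2, the inducible prostaglandin synthase, stood under MC903 at 569, 399, 436 and 523 cpm in aGr1 mice, 163 to 379 cpm in uninjected mice and 292 and 168 cpm in PBS mice, all below the aGr1 values. Its interaction was 1.87 ± 0.33 (adjusted p = 0.005446), and against PBS it was 1.42 ± 0.47 (adjusted p = 0.2142). Cyp24a1, which breaks down active vitamin D and is a direct target of its receptor, stood at 4890, 4590, 4220 and 4690 cpm in aGr1 MC903 mice, 1970 to 3910 cpm in uninjected mice and 3110 and 2420 cpm in PBS mice. The interaction of Cyp24a1 was 2.11 ± 0.57 (adjusted p = 0.03977) against uninjected mice and 0.20 ± 0.73 against PBS mice (adjusted p = 0.9962). Rptn, a cornified envelope protein, the stress keratins Krt16 and Krt6b and the stromelysin Mmp10 had interactions of 1.87 ± 0.31, 1.35 ± 0.34, 1.46 ± 0.30 and 2.28 ± 0.46, and against PBS they gave 1.08, 0.82, 0.91 and -0.11, none past the threshold. Under MC903 the aGr1 levels of Rptn, Krt16 and Krt6b overlapped the uninjected ones. Krt6b stood there at 4930 to 6140 cpm in aGr1 and 4700 to 12900 cpm in uninjected mice. Under ethanol it stood at 29.2 to 59.8 and 100 to 205 cpm. Rptn stood under ethanol at 26.3 to 55.5 cpm in aGr1 and 89.9 to 152 cpm in uninjected mice. Mmp10 stood under MC903 at 23.1 to 37.5 and 4.38 to 21.5 cpm, without overlap. Nrg1, an ErbB receptor ligand, and the integrin subunit Itga3 gave 2.82 ± 0.44 and 1.34 ± 0.20.

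Fbxo32, a ubiquitin ligase known from muscle wasting, passed against uninjected mice, against PBS mice and with the PBS vehicle. It stood at 343, 451, 271 and 799 cpm in aGr1 MC903 mice, 64.3 to 149 cpm in uninjected and 74.3 and 175 cpm in PBS MC903 mice, with no overlap. Under ethanol it stood at 83.3 to 161.3 cpm over all 13 libraries. Fbxo32 had an interaction of 2.58 ± 0.37 (adjusted p = 0.001969), of 2.09 ± 0.49 against PBS (adjusted p = 0.03802) and of 2.42 ± 0.39 with the PBS vehicle (adjusted p = 0.03951). Skeletal muscle markers under MC903 summed to 7224 to 11440 cpm in aGr1 mice and 5942 and 9144 cpm in PBS mice, which overlapped. In uninjected mice they summed to 2308 to 4076 cpm. Under ethanol the sums were 12850 to 19950 cpm in aGr1, 8004 to 30070 cpm in PBS and 4075 to 17110 cpm in uninjected mice. The muscle sum of aGr1 mice was thus lower with MC903 than with ethanol, whereas Fbxo32 was higher. None of 12 muscle markers passed in the interaction (median 0.67), and the part of muscle in the Fbxo32 result was not tested.

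Cytokines and chemokines of the early response gave few calls. The alarmin Il33 stood under MC903 at 64.5, 77.3, 103 and 48.8 cpm in aGr1 mice, 134 to 281 cpm in uninjected mice and 127.4 and 99.9 cpm in PBS mice. The aGr1 values lay below the uninjected ones and overlapped those of PBS mice. Il33 rose in all 3 settings, with an interaction of -1.81 ± 0.39 against uninjected mice (adjusted p = 0.0136) and -0.79 ± 0.48 against PBS mice (adjusted p = 0.6588). Tslp and the type 2 cytokine Il4 had interactions of 0.91 ± 0.80 and 0.67 ± 0.93 (adjusted p = 0.5738 and 0.7434). Under MC903 Tslp stood at 5.06, 5.34 and 15.4 cpm in cohort A, 122.4 and 136.2 cpm in cohort B, 62 and 60.1 cpm in PBS mice and 28.3 to 174.8 cpm in aGr1 mice, so the aGr1 values overlapped those of cohort B and PBS mice and lay above those of cohort A. Of 7 genes of the CXCR2 axis none passed, and 7, 6 and 5 rose with MC903 in uninjected, PBS and aGr1 mice. Over all genes 12.2%, 4.7% and 12.7% rose. Cxcl2, which draws neutrophils, stood at 2.01 to 59.2 cpm in uninjected MC903 mice and 14.6, 2.81, 17.5 and 15.4 cpm in aGr1 MC903 mice. Cxcl2 rose by 6.34 ± 0.73 in uninjected mice and by 6.31 ± 0.97 in aGr1 mice. Its interaction was -0.03. The SE computed for it, 3.45, is unreliable for so small an effect, so nothing is read from it. Cxcl1, Cxcl3 and Cxcl5 gave -1.72 ± 0.89, -0.06 ± 0.81 and 1.32 ± 1.84.

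Neutrophil transcripts themselves were raised by MC903 in aGr1 mice, which is why the genes are described here by their interaction and not by a need for neutrophils. Of 25 marker genes 18 rose in each of the uninjected, PBS and aGr1 settings, where 12.2%, 4.7% and 12.7% of all genes rose. The median effects were 3.80, 4.59 and 3.65. One marker had a higher and 2 had a lower interaction. Their summed level under MC903 was 410.8 to 513.2 cpm in aGr1 mice, 280.6 to 660 cpm in uninjected mice and 516.7 and 644.3 cpm in PBS mice. Padi4 and Il1r2, which enter these sums, stood at 51.5 to 158 and 52 to 108 cpm in uninjected ethanol mice and at 42.9 to 106 and 41.6 to 79.2 cpm in uninjected MC903 mice, so not every marker on the list followed MC903. Mmp8, neutrophil collagenase, stood at 7.82, 6.69, 7.8 and 9.13 cpm in aGr1 MC903 mice, 2.27 to 6.05 cpm in uninjected and 4.34 and 11.4 cpm in PBS MC903 mice, with an interaction of 1.06 ± 0.50 (adjusted p = 0.288). Retnlg and S100a8 gave 0.85 ± 0.84 and 0.53 ± 0.79, and S100a8 and S100a9 are also made by keratinocytes. The receptors Cxcr2 and Csf3r gave -0.33 ± 0.30 and -0.66 ± 0.41, neither past the threshold. Ly6g, which encodes the antibody's target, had 11, 8, 2, 0 and 0 reads in uninjected, 1 and 5 in PBS, and 1, 1, 0 and 0 in aGr1 MC903 libraries, too few for a difference to be read at this depth. Inflammatory monocyte markers had 4 of 10 lower (Ms4a4c, Plac8, Ccr2 and Fcgr1) and none higher, where 3.36% of all genes were lower. None of the 10 passed without aGr1 ethanol libraries 1 and 2 (median -0.30) or with the PBS vehicle (median 0.01). Their summed level under MC903 was 443.1 to 675.9 cpm in aGr1 mice and 406.7 to 1016 cpm in uninjected mice, which overlapped.

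**Figure D4:**
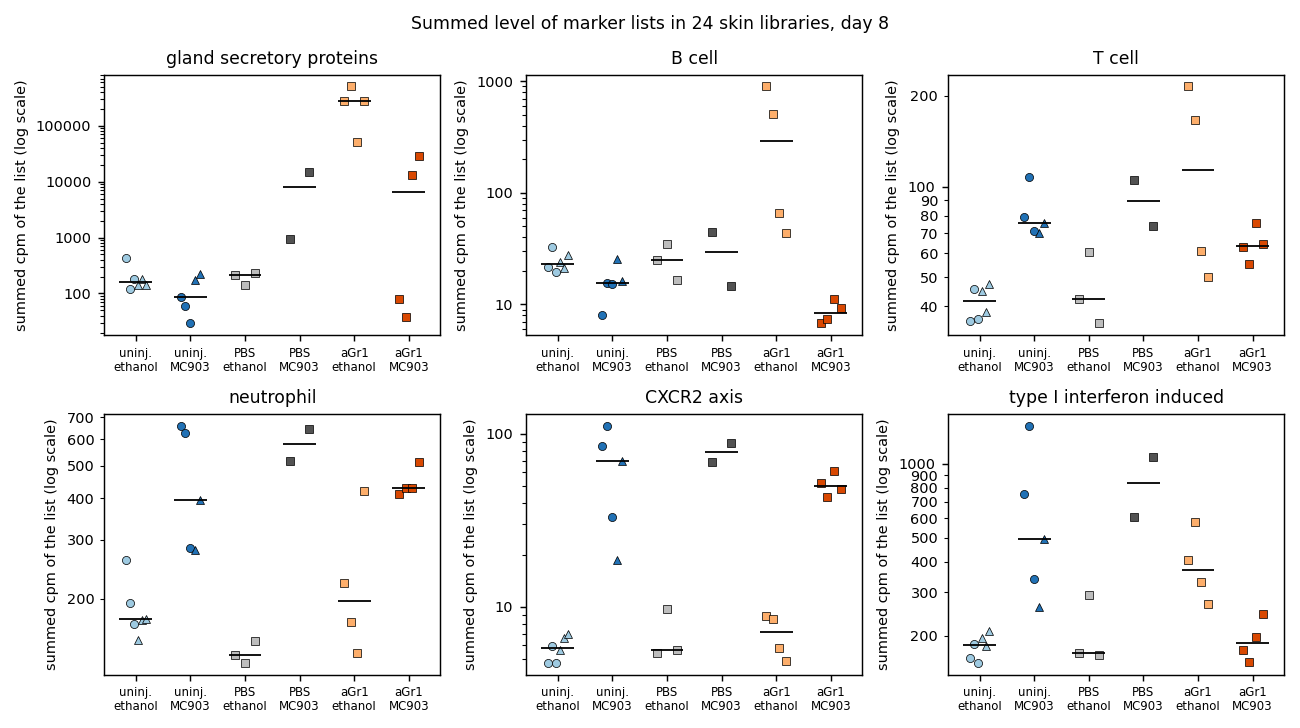
Summed level of 6 gene lists (cpm, log scale) in 24 libraries, with circles for cohort A, triangles for cohort B, squares for injected mice and a bar at each group's median. The gland list reaches 507200 cpm in an aGr1 ethanol library, neutrophil markers under MC903 overlap between aGr1 (410.8 to 513.2) and uninjected mice (280.6 to 660), and the type I interferon list of the aGr1 MC903 libraries lies below that of all others under MC903.

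The remaining lists held 7 calls or fewer each, to be read against the 3.36% of all genes that were lower and 1.2% that were higher. Macrophage, mast cell and basophil, and IL-17, IL-22 and IL-20 lists had none among 12, 13 and 18 genes. CC chemokines and their receptors had 7 of 26 lower (median -1.59), type 2 cytokines and receptors 2 of 16 and eosinophil markers 2 of 8. Vitamin D response genes had 3 of 9 higher, epidermal barrier genes 3 of 27 higher and matrix remodelling genes 3 higher and 1 lower of 21. Stress keratins and proliferation genes had 2 of 16 higher, with a median of 0.90 that went to 0.03 with the PBS vehicle.

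**Figure D5:**
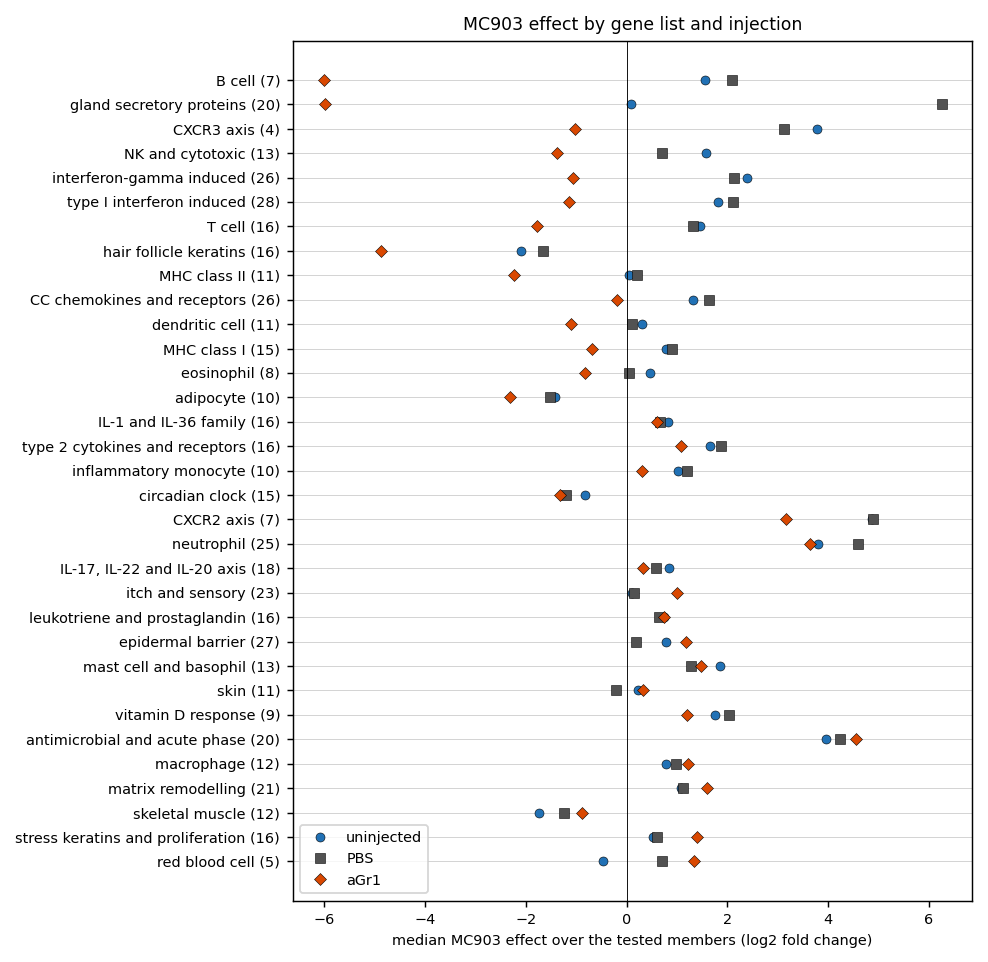
Median MC903 effect over the tested members of each gene list (log2 fold change, horizontal axis; number of genes in parentheses) in uninjected (circles), PBS (squares) and aGr1 mice (diamonds), ordered by the median interaction. For the type I interferon list the medians are 1.81, 2.12 and -1.15, whereas for neutrophil markers they are 3.80, 4.59 and 3.65.

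Removal of the libraries that stood apart changed how many genes passed. Without aGr1 ethanol libraries 1 and 2, 98 genes had a lower (0.358%) and 39 a higher interaction (0.143%), and 94 of the 935 and 39 of the 334 were among them. Also without library 4, which left a single aGr1 ethanol library assumed to vary like the other groups, 16 and 2 passed (0.0588% and 0.00735%), with the same sign as before in 930 of 935, 334 of 334 and, over all genes, 21642 of 27218. These fits share their other libraries with the one that chose the genes. With PBS ethanol libraries in place of the aGr1 vehicle arm, 2 genes were lower (0.00723%) and 6 higher (0.0217%). These were Tprg and Fam241a, and Gm9978, Mmp10, Fbxo32, Gramd1b, Pdk4 and Ucp3, named after their values were seen, all but Gramd1b among the 1269 genes. In that setting 780 of 933 lower genes had the same sign as before (median -0.56), 330 of 334 higher genes did (median 0.66), and 19179 of 27374 genes did in all.

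The lists differed in how far they moved under that replacement. The median went from -2.98 to -1.91 for the type I interferon list, from -3.25 to -2.37 for the interferon-gamma list and to -4.32 for the CXCR3 axis, and no member passed. For Cxcl10 the value was -3.92 ± 0.84 (adjusted p = 0.08327) and for Irf9 -1.41 ± 0.34 (adjusted p = 0.1333). It went from -1.31 to -0.98 for MHC class I genes, from -2.05 to -0.81 for MHC class II genes, from -2.88 to -0.79 for T cell genes, from -6.11 to -1.18 for B cell genes and to 5.21 for gland genes, with no MHC, T cell or B cell gene passing. Keeping or gaining size was not particular to the interferon and CXCR3 lists. Hair follicle keratins went from -2.56 to -4.15, red blood cell genes from 1.72 to 3.16 and eosinophil markers from -0.94 to -1.03, with no member passing. Over the 27374 genes compared in this setting the median was -0.01.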

How the data were processed

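Raw read counts per gene were deposited for each library. Per the paper's methods and the submitters' processing notes, the authors aligned reads to mm10 with TopHat and Bowtie2 and counted them with HTSeq; the annotation release and strand setting are not given in the sources used here, so overlapping genes on opposite strands may not be separated. Tally lines that name no gene, 11.3% to 18% of each total, were left out.

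Counts were fitted with edgeR 4.0.16 in R 4.3.3 (TMM scaling, genes with at least 10 reads in total, quasi-likelihood F test, Benjamini-Hochberg, threshold 0.05). The interaction came from 19 libraries with a baseline each for cohort A, cohort B and aGr1; PBS values came from a fit of 24 libraries. Levels are cpm after TMM scaling over the 24 libraries. Errors are SE of log2 values, taken as the size of the effect over the square root of its F statistic. Such an SE is unreliable for very small effects. Libraries were treated as separate samples, and p-values measure the spread between them. Where PBS ethanol replaced the aGr1 vehicle arm, the aGr1 MC903 effect was taken against PBS ethanol. DESeq2 1.42.0, other scalings and filters, left-out libraries and a replicate block were alternatives. The fit was tested on simulated data. Replicates differed by more than sampling noise, so none was merged.

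Named genes were the 15 smallest p in each direction (gene models without a proper symbol left out), the cytokines and chemokines the study plotted, up to 4 called members per list, and the 4 most abundant neutrophil and vitamin D genes; Mmp8, Retnlg, Cxcr2, Csf3r, Ly6g, Ifng, Cxcr3, Ifit1, Bpifa2, Amy1, Pip, S100a8, S100a9 and Mmp10, where the rule had not already named them, and the 22 genes lower under MC903 were added after values were seen. Members and lists were chosen with earlier results of these data known, and the gland list and the replacement of the vehicle arm after seeing the data. Some genes are not reported here.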

Additional observations from a re-analysis of the deposited data

Results flagged for a closer look

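The count of genes whose MC903 effect differed between aGr1 and uninjected mice, 935 lower and 334 higher, and between aGr1 and PBS mice, 292 lower and 9 higher, is a difference between groups under the same contrast, and the test of the difference is the interaction itself.

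Single libraries stood far from the others of their group in 14 of 136 groups looked at. The rule flags about 1 in 20 groups by chance if values are normal and separate. Levels in cpm of genes from shared libraries are not, so nothing is read from the count. Among gland genes, aGr1 MC903 library 3 held 6640 cpm of Bpifa2 (others 2.68 to 280) and 2520 cpm of Amy1 (12.3 to 160). Bpifa2 also stood apart at 0.771 cpm in an uninjected MC903 library and at 0.801 cpm in an uninjected ethanol library of cohort A, the latter also with 1.09 cpm of Wfdc12. Another uninjected ethanol library of cohort A held 427.1 cpm of the gland list (118.2 to 181.7) and 8.4 cpm of S100a8 (2.57 to 4.4). One uninjected MC903 library of cohort A was the highest for Cxcl11 (3.67 cpm), Gbp8 (19.6 cpm) and the T cell list (107.6 cpm). In aGr1 mice, S100a8 stood at 78.1 cpm in MC903 library 1, Irf9 at 19.7 cpm in MC903 library 2, Mmp10 at 37.5 cpm in MC903 library 4 and Mmp8 at 0.219 cpm in ethanol library 3.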

How the results depend on the processing

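Counts below are higher and then lower genes. For aGr1 against uninjected mice (334 and 935), they were 922 and 1593 by DESeq2, 218 and 447 with cohort A alone and 153 and 294 with cohort B alone. Of the added settings, chosen after seeing the data, they were 39 and 98 without aGr1 ethanol libraries 1 and 2, 2 and 16 also without library 4, and 6 and 2 with the PBS vehicle. Leaving out 1 library gave 138 (without aGr1 ethanol 2) to 821 (without aGr1 ethanol 3) and 478 (without aGr1 MC903 1) to 1532 (without aGr1 ethanol 3). Whether equal replicate numbers mark pairs is not known. Deviations of same-numbered samples correlated from -0.6 to 0.55. In cohort B and PBS mice, with 2 MC903 libraries each, these correlations mirror each other by construction, so they cannot decide it. With the replicate block the counts were 232 and 515, and against PBS 3 and 53.

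Against PBS (9 and 292) they were 16 higher under the stricter expression filter, 64 and 575 by DESeq2, 1 and 61 in a fit of the 13 injected libraries, 0 and 35 without aGr1 ethanol 1 and 2, and 0 and 18 also without 4; leaving out 1 library gave 0 (without PBS ethanol 1) to 74 (without PBS ethanol 2) and 38 (without PBS MC903 2) to 640 (without aGr1 ethanol 3). DESeq2 called 1292 genes lower with MC903 in PBS mice and called 1 and 1 between PBS and uninjected mice. The ethanol contrast (1143 and 309) gave 505 lower under the stricter filter, 1825 and 748 by DESeq2, and 226 and 1 without aGr1 ethanol 1 and 2. The MC903 contrast (8 and 22) gave 24 and 79 without a filter, 313 and 344 by DESeq2, 17 and 70 without aGr1 ethanol 1 and 2, and 0 and 0 without aGr1 MC903 3 and PBS MC903 2. Cohort A against B gave 11 and 274 without a filter and 103 and 483 by DESeq2. The causes were not tested. DESeq2 gave no adjusted p for Ifng and Prg2.

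With the PBS vehicle the interaction changed sign for Pax9 (0.52), Ggh (0.13), Kcnn4 (1.27), Spdef (3.66), Atp2a3 (0.58), Ceacam2 (0.45), Ceacam1 (0.71), Ccr7 (0.21), Pglyrp1 (0.24), and for the uncalled Il4 (-0.48), Cxcl5 (-0.36), S100a8 (-0.35), Bpifa2 (5.53), Amy1 (5.14) and Pip (6.10). Other uncalled genes changed sign without aGr1 ethanol 1 and 2 (Cxcl2 0.47, S100a8 -0.19, Cxcr2 0.02), also without 4 (Il4 -0.16, Cxcl1 0.40, Cxcl2 5.23, S100a8 -0.69, Mmp8 -0.08), in cohort A alone (Retnlg -0.54) or B alone (Tslp -0.49, Cxcl2 0.83, Cxcl3 0.90), or with PBS and uninjected mice together (Cxcl3 0.04). Leaving out 1 library turned Cxcl2 to between 0.09 and 0.38 and Cxcl3 to between 0.01 and 0.67 in some cases. Low read numbers limit Cxcl11, Ifng and Ly6g.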

Other observations

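The summed level of hair follicle keratins ranged under ethanol from 14660 to 52770 cpm in uninjected mice and from 271.8 to 9871 cpm in aGr1 mice, and under MC903 from 934.6 to 17480 and from 15.62 to 549.3 cpm. All 16 genes fell with MC903 in aGr1 mice, none was called in uninjected mice and none passed in the interaction (median -2.56). Among clock genes, Dbp and Nr1d1, which cycle over the day, had interactions of -1.68 ± 0.39 (adjusted p = 0.02055) and -1.21 ± 0.27 (adjusted p = 0.01746), and 2 of 15 passed in all.

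Padi4 of the neutrophil list, which citrullinates histones, had a higher interaction (2.63 ± 0.63, adjusted p = 0.0244), while Clec4e of the same list had a lower one (-3.55 ± 0.96, adjusted p = 0.04045). The antimicrobial peptide Defb4 gave 3.47 ± 0.81 against uninjected mice (adjusted p = 0.02128) and -0.50 ± 1.05 against PBS mice (adjusted p = 0.9548). Il10 gave -2.46 ± 0.49 (adjusted p = 0.009134), and its MC903 effect was 3.26 ± 0.32 in uninjected and 0.79 ± 0.36 in aGr1 mice.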
